A study of Mus musculus with 12 samples.

Results

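The genes described here are 52 genes of the cell cycle, covering replication, mitosis and their control, in plasmablasts (PBs) and plasma cells (PCs) of the mouse. They were chosen by gene name from a fixed list of known cell cycle genes, and all 52 were found among the 24189 genes listed in all 10 RNA-seq libraries. The study asked which genes the transcription factors Xbp1 and Mist1 control in antibody-secreting cells. Mist1 is the product of the Bhlha15 gene. All mice were C57BL/6. The PBs were obtained from splenic B cells grown for 8 days on irradiated 40LB feeder cells, fibroblasts that present BAFF and CD40 ligand, first with IL-4 and then with IL-21 (the iGB system), and were sorted by surface markers that include CD138 (present) and CD23 (absent). The control was Xbp1 fl/fl, with floxed alleles and no Cre. PBs of genotype Cd23-Cre Xbp1 fl/fl are called Xbp1-deficient here. In the third genotype, Bhlha15 CreER/CreER, both Bhlha15 alleles carry a CreER insertion in every cell of the mouse. The Cd23-Cre transgene deletes floxed alleles in B cells before they are activated. The PCs were TACI+CD138+ cells of the spleen, sorted on day 7 after immunization with NP-KLH. Their genotypes were Cd23-Cre Bhlha15 fl/fl, called Mist1-deficient PCs here, and a control that the labels call wildtype and the study's methods call Bhlha15 fl/fl. The titles and cell type labels used here conflict with the series' design text, which names the control PB samples as plasma cells and the Mist1-deficient PC samples as plasmablasts, and which leaves the Bhlha15 CreER/CreER samples out of the differential analysis. Each of these 5 groups had 2 RNA-seq libraries. The sources used here do not say how many mice stand behind a library, so that the spread between libraries may be in part technical. Mist1 binding was read from 2 Bio-ChIP-seq samples, in which biotin-tagged Mist1 was pulled down. These were CD138+ PBs of genotype Bhlha15(fl/fl) R26(BirA/BirA), grown from splenic B cells for 4 days with LPS.

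Cells that enter the cycle pass from G1 into DNA synthesis (S), a second gap (G2) and mitosis (M). In G1, D-type cyclins with Cdk4 and Cdk6, and then E-type cyclins with Cdk2, release E2F transcription factors, which switch on genes for replication. Genes for mitosis are switched on later by Myb-MuvB, which binds CHR promoter elements, together with Foxm1 and NF-Y. PBs are the dividing antibody-secreting cells, and PCs leave the cycle as they mature.

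Values are TPM, that is, transcript counts per gene divided by gene length and scaled to the same sum in each library, so that levels of different genes can be compared, whereas the number of reads behind a value is unknown. Comparisons were made with limma on the log2 of scaled TPM plus 0.1, and a gene was called higher or lower at an adjusted p under 0.05 over all genes tested. Bhlha15 was at 159 to 176 TPM in control PBs, 0.210 and 0.551 in Bhlha15 CreER/CreER PBs, 2.60 and 3.57 in Xbp1-deficient PBs, 242 to 258 in wildtype PCs and 14.4 and 16.6 in Mist1-deficient PCs. Xbp1 was at 1981 and 2024 TPM in Xbp1-deficient PBs against 3043 and 3168 in the control, and a value for the whole gene cannot show whether the floxed part was lost. Sdc1, which encodes CD138, was between 157 and 571 TPM in all 10 libraries. The T cell genes Cd3e and Cd8a reached at most 15.8 TPM, and Lck, the highest of 7 listed T cell genes, 28.1 TPM. The neutrophil genes S100a8 and S100a9 were at 160 to 357 TPM in the PC libraries and at most 45.7 TPM in the PB libraries. The PB libraries held transcripts of 8 fibroblast genes that sum to 931 to 1804 TPM, against 10.3 to 13.5 in the PC libraries. These sums separate the libraries by the cell type in their titles, not by that in the design text. The Bhlha15 CreER/CreER libraries differed from each other more than other pairs (SD of the log2 ratio 0.224, against 0.146 to 0.199), with 49 of the 52 genes lower in replicate 2 in TPM as deposited and a fibroblast sum of 1564 in replicate 1 and 931 in replicate 2. In the mm9 annotation 17 of the 52 genes share exon sequence with another gene, and 12, among them Ccnb1, Cdc6, Pcna and Rrm2, have a near copy elsewhere in the genome, so that part of their reads may have been dropped or shared.

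In control PBs the cell cycle genes were expressed at a median of 93.1 TPM, and all 52 reached at least 1 TPM in each of the 10 libraries. Together they took 0.651% and 0.654% of the TPM of the 2 control PB libraries. The highest levels were those of Ccnd2, the D-type cyclin of B cells, with 416 and 463 TPM, and Mki67, the proliferation antigen Ki-67, with 415 and 419 TPM. These overlap between the 2 genes. Top2a, the topoisomerase that untangles chromosomes before mitosis, followed at 373 and 374 TPM, and Rrm2, the regulated subunit of ribonucleotide reductase, at 349 and 364 TPM. The lowest level was that of Ccne2, an E-type cyclin, with 6.93 and 7.03 TPM, whereas the related Ccne1 was at 55.9 and 60.2 TPM. Among partners of the D-type cyclins, Cdk4 was at 341 and 346 TPM and Cdk6 at 20.6 and 24.7 TPM, so that their ranges were far apart. By role, the median in the 2 control PB libraries was 122 and 124 TPM for the 9 licensing genes, 118 and 122 TPM for the 8 cyclins and kinases of S, G2 and M (the phosphatase Cdc25b is counted among them), 105 and 107 TPM for the 13 genes of the mitotic machinery, and 48.9 and 50.6 TPM for the 6 transcription factors.

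**Figure D1:**
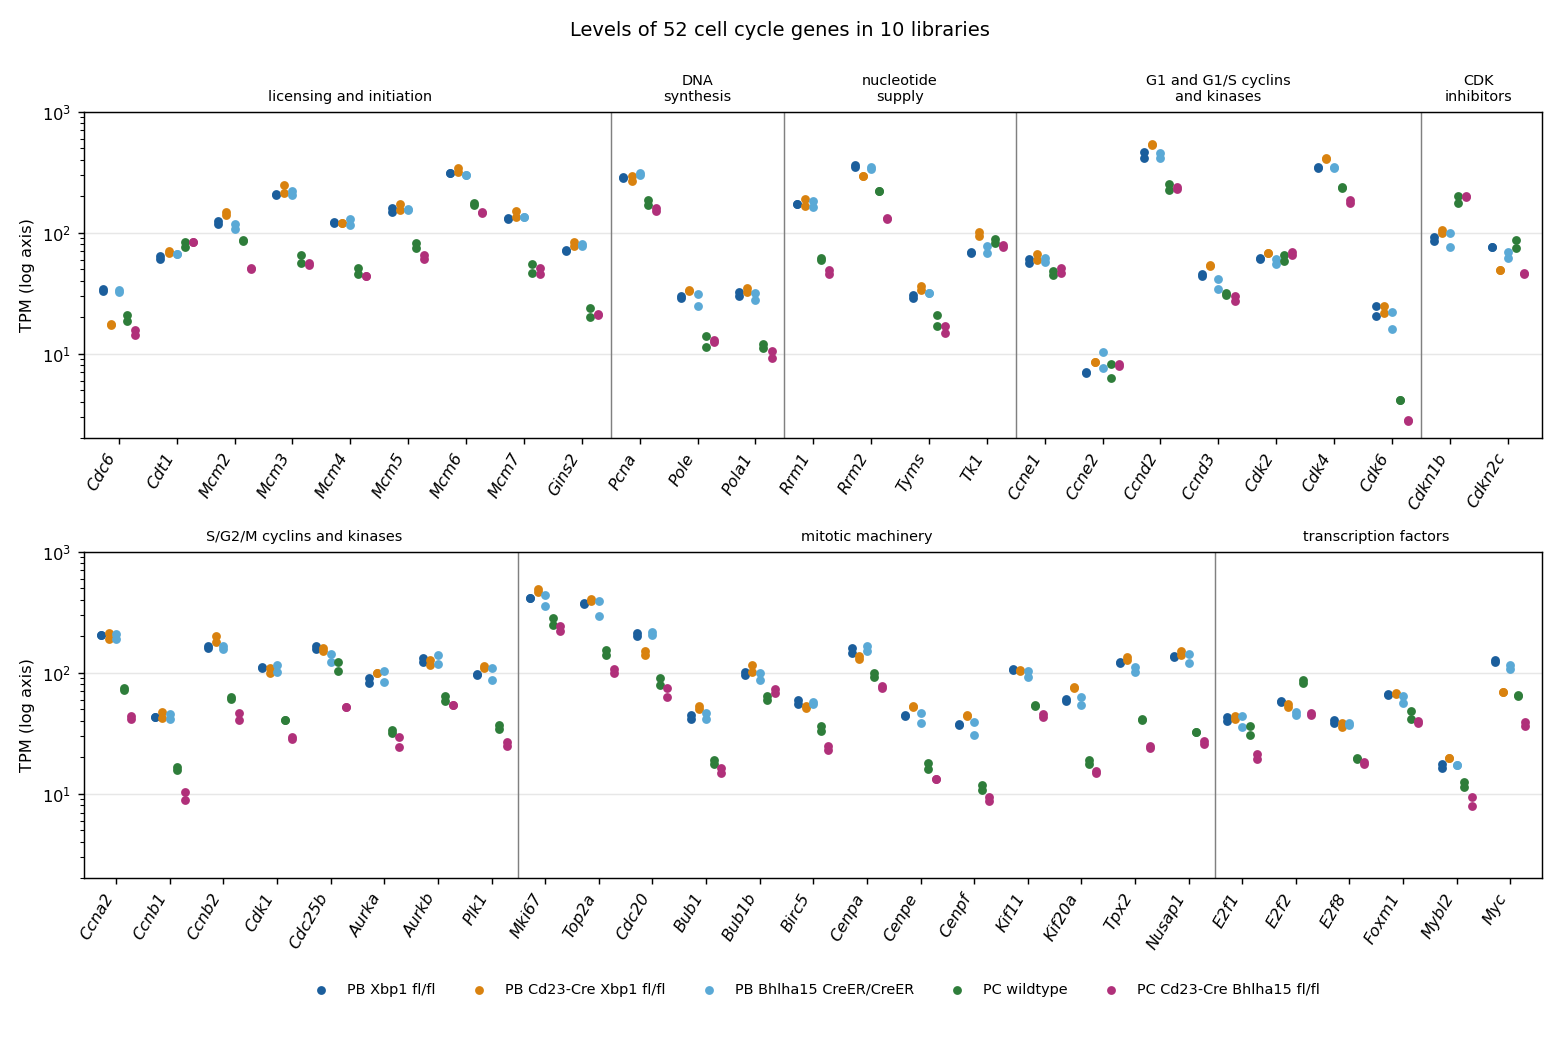
TPM as deposited (log axis) of the 52 cell cycle genes, grouped by role, with 1 point for each of the 10 libraries and a colour for each of the 5 groups. Most genes sit lower in the PC libraries than in all 6 PB libraries, Cdkn1b and Cdt1 sit higher, and Cdk6 and Ccne2 mark the low end of the range.

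The promoters of these genes differed in their motifs by role. RefSeq promoter windows (GRCm38.p6, 250 bases before to 50 bases after a start site) were at hand for 41 of the 52 genes, and were searched on both strands for the E2F motif spelled TTCGCGC or TTGGCGC or TTCCCGC, the CHR elements TTTGAA and TTCGAA, and the NF-Y box CCAAT. The element TTCGAA is its own reverse complement, and TTGGCGC on a strand can overlap TTCGCGC on the other. A CHR element was present in 41.5% of the cell cycle genes and 21.7% of the 27025 genes of the table, an E2F motif in 36.6% and 9.2%, and CCAAT in 73.2% and 41.1%. Of the 9648 genes of the table that were tested in all 10 libraries, 16.4%, 16.6% and 43.1% held the 3 kinds of motif. CHR elements were found in 8 of 11 genes of the mitotic machinery and 5 of 6 cyclins and kinases of S, G2 and M, but in 2 of 7 licensing genes and in none of the cyclins and kinases of G1, the CDK inhibitors, the genes of DNA synthesis or those of nucleotide supply. E2F motifs were found in 6 of 7 licensing genes and in 1 of 11 genes of the mitotic machinery. All 17 cell cycle genes with a CHR element also held CCAAT, a combination present in 9.65% of all genes of the table. No window was at hand for Ccna2, Ccne2, Ccnd2, Mcm4, Gins2, Pole, Aurkb, Kif20a, Tpx2, Foxm1 and Myc.

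A set of 6 promoters is shown because it sets mitotic genes beside replication genes and a gene with neither motif. A match is a match of letters and does not show that a factor binds there. The 141 bases from 150 to 10 bases before the start site are printed 5′ to 3′ on the strand of the gene, and capitals mark the motifs on either strand. In Top2a, Cdc20, the activator of the anaphase-promoting complex, and Cdk1, the mitotic kinase, a CHR element lies 15 to 23 bases before the start, with at least 1 CCAAT box upstream of it. Mcm6, a subunit of the replicative helicase, holds the overlapping E2F pair at 2 places, Rrm1, the large subunit of ribonucleotide reductase, holds TTCCCGC between CCAAT boxes, and Rrm2 holds a CCAAT box with neither E2F motif nor CHR element.
Top2a (chr11:99024199-99024339, minus strand): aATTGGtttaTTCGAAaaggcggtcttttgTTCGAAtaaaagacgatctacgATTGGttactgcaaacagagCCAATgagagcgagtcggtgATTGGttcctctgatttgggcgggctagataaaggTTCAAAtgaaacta
Cdc20 (chr4:118437353-118437493, minus strand): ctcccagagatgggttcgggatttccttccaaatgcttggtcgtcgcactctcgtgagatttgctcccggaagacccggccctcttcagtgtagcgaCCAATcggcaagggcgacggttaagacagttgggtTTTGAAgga
Cdk1 (chr10:69352922-69353062, minus strand): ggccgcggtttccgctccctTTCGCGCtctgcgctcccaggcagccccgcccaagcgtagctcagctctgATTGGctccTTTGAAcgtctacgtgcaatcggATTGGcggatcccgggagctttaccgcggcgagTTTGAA
Mcm6 (chr1:128359715-128359855, minus strand): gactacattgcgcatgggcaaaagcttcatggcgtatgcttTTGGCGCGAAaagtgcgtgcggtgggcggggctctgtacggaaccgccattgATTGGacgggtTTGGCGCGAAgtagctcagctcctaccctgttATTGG
Rrm1 (chr7:102441545-102441685, plus strand): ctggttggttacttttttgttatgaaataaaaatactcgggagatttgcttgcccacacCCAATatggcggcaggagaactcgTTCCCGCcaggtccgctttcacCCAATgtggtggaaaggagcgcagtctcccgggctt
Rrm2 (chr12:24708104-24708244, plus strand): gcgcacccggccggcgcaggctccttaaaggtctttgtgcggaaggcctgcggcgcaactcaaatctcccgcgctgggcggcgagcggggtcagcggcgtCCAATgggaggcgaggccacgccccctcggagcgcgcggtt

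**Figure D2:**
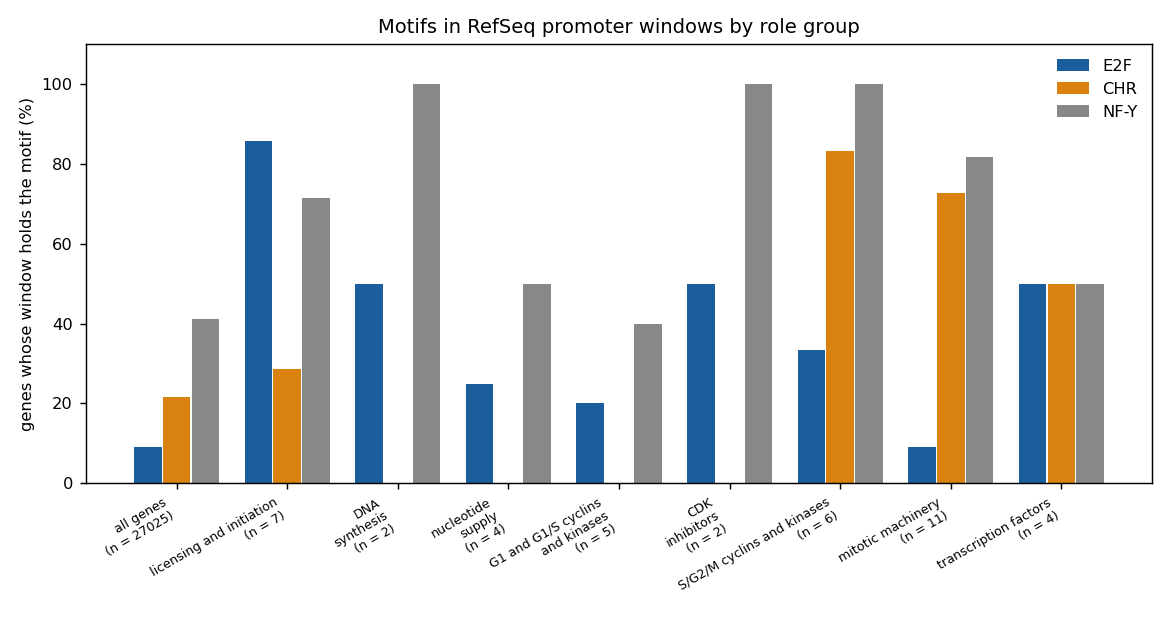
Share of genes (percent) whose RefSeq promoter window holds an E2F motif, a CHR element or a CCAAT box (NF-Y), for all genes of the table and for each role of the cell cycle genes, with the number of genes under each group. The CHR bars reach 83.3% for cyclins and kinases of S, G2 and M and 72.7% for the mitotic machinery, the E2F bar reaches 85.7% for licensing, and several groups hold 2 to 5 genes only.

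The first comparison asked how the cell cycle genes differ between control PCs in the spleen and control PBs in culture. Of the 52 genes, 45 were lower in wildtype PCs than in control PBs, 4 were higher and 3 did not pass the test, where 38.4% of the 13230 genes tested were lower and 37.6% higher. The median log2 difference of the cell cycle genes was -1.07, against 0.01 over all genes tested, and their summed TPM in the PCs was 0.564 times that in the PBs. Of the 52 genes, 9 were lower by more than 3-fold, where 6.19% of all genes tested passed that limit. In bulk libraries, fewer cells in cycle and less RNA per cell cannot be told apart, nor can the cell stage be told apart from culture against spleen, stimulation, sort and experiment.

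All 13 genes of the mitotic machinery were lower in PCs. Nusap1, which bundles spindle microtubules, was at 135 and 137 TPM in control PBs and 32.1 and 32.3 TPM in wildtype PCs, a difference of -2.18 ± 0.07 (SE) on the log2 scale (limma adjusted p = 2.18e-08). Cenpf, a kinetochore protein, fell from 36.8 and 37.7 TPM to 10.7 and 11.8 TPM, and Kif20a, a kinesin of cytokinesis, from 58.3 and 60.5 TPM to 17.5 and 18.8 TPM. None of these ranges overlapped between the groups. Top2a was at 141 and 153 TPM in the PCs, a difference of -1.46 ± 0.09, and Mki67 at 246 and 283 TPM, a difference of -0.77 ± 0.08, the smallest of the 13. Mki67 had the highest mean of the 52 genes in wildtype PCs, although its range overlapped that of Ccnd2. Bub1 and Bub1b, of the spindle checkpoint, differed by -1.36 and -0.78, Kif11, the motor that separates the spindle poles, by -1.10, and Birc5, known as survivin, by -0.82. The 8 cyclins and kinases of S, G2 and M were also lower without exception. Ccna2, the A-type cyclin of S and G2, was at 206 and 207 TPM in control PBs and 72.2 and 75.1 TPM in wildtype PCs. Differences between -1.51 and -1.60 were shared by Ccna2, Plk1, Cdk1, Ccnb1, Ccnb2 and Aurka, the kinases and cyclins that drive entry into mitosis, whereas Aurkb, the kinase of chromosome alignment, differed by -1.19 and Cdc25b, the phosphatase that activates Cdk1, by -0.64 ± 0.08. For Cdc25b the libraries held 157 and 166 TPM in the PBs against 103 and 123 TPM in the PCs.

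Replication genes fell as well, with 8 of 9 licensing genes, 3 of 3 genes of DNA synthesis and 3 of 4 genes of nucleotide supply lower in PCs. Mcm3, a subunit of the replicative helicase, was at 205 and 210 TPM in control PBs and 56.5 and 65.8 TPM in wildtype PCs, a difference of -1.88 ± 0.08. Of the 6 helicase subunits Mcm2 differed least. It was at 119 and 124 TPM against 86.0 and 87.7 TPM, a difference of -0.59 ± 0.06. The difference of the other 4 subunits lay between -0.95 and -1.49. Gins2, a partner of the helicase, differed by -1.81 ± 0.07. Pola1, the catalytic subunit of polymerase alpha, differed by -1.54 ± 0.10, and Pole, that of polymerase epsilon, by -1.34 ± 0.10. Rrm1 fell from 171 and 172 TPM to 59.2 and 61.8 TPM, a difference of -1.62 ± 0.08, and Tyms, thymidylate synthase, by 0.77 on the log2 scale. Cdt1, which loads the helicase at origins, went the other way, with 60.6 and 63.8 TPM in the PBs and 76.4 and 83.4 TPM in the PCs. Its difference was 0.25 ± 0.06 (limma adjusted p = 0.00295). Tk1, thymidine kinase of the salvage pathway, was at 68.0 and 68.7 TPM in the PBs and 82.8 and 89.5 TPM in the PCs (0.22 ± 0.06), but the mean of both PC groups against the mean of the 3 PB groups gave -0.0062.

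Cyclins and kinases of G1 had a median difference of -0.64, and 5 of 7 were lower. Cdk6 was at 20.6 and 24.7 TPM in control PBs and 4.14 and 4.18 TPM in wildtype PCs, a difference of -2.52 ± 0.15 (limma adjusted p = 5.28e-07) and the largest of all 52. Its partner in function Cdk4 was at 232 and 240 TPM in the PCs, a difference of -0.65 ± 0.06, and Ccnd2 at 225 and 251 TPM, a difference of -0.999 ± 0.08. Ccnd3, another D-type cyclin, was at 44.0 and 45.5 TPM against 30.5 and 31.5 TPM, and Ccne1 at 55.9 and 60.2 TPM against 44.6 and 48.1 TPM. The ranges of Ccnd3 and Ccne1 did not overlap between the groups. Ccne2, at 6.29 and 8.20 TPM in the PCs, and Cdk2, at 58.2 and 65.3 TPM, overlapped with the PBs. The inhibitor Cdkn1b, known as p27, was at 85.2 and 92.7 TPM in control PBs and 176 and 200 TPM in wildtype PCs, a difference of 0.96 ± 0.09 (limma adjusted p = 9.71e-06). The inhibitor of Cdk4 and Cdk6 Cdkn2c, known as p18, was at 76.4 and 76.7 TPM against 74.9 and 87.7 TPM, and these ranges overlapped.

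Of the 6 transcription factors, E2f2 was higher in PCs and the other 5 lower. E2f2, an activating E2F, was at 57.3 and 58.0 TPM in control PBs and 82.9 and 86.6 TPM in wildtype PCs (0.44 ± 0.06, limma adjusted p = 0.000123), whereas E2f1, of the same class, was at 40.2 and 43.3 TPM against 30.7 and 36.4 TPM (-0.43 ± 0.11). Myc, which drives cell growth, was at 123 and 126 TPM against 64.5 and 65.4 TPM, a difference of -1.05 ± 0.07. E2f8, a repressive E2F, was at 38.6 and 40.5 TPM against 19.4 and 19.8 TPM, Foxm1 at 65.0 and 67.2 TPM against 41.8 and 48.2 TPM, and Mybl2, the Myb protein of Myb-MuvB, at 16.2 and 17.7 TPM against 11.3 and 12.5 TPM. By promoter, the median difference was -1.36 for the 17 genes with a CHR element, -1.01 for the 10 genes with an E2F motif and no CHR element and -0.71 for the 14 genes with neither, and the differences between these medians were not tested.

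All 45 genes that were lower in PCs were lower in each of the 14 alternative analyses, as were 3 of the 4 that were higher, Tk1 being the exception. Without scaling the libraries the median over all genes moved to 0.12 and that of the cell cycle genes to -0.95. Of other cell cycle genes, listed by function, 64 of 68 mitosis genes, 44 of 48 replication genes and 25 of 45 regulators were lower in PCs. In the same order, 1, 2 and 10 were higher. Over all 13230 genes tested, 38.4% were lower and 37.6% higher. Among the regulators, Ccnd1 was at 156 and 169 TPM in the PBs and 2.42 and 3.32 TPM in the PCs, and Cdkn1a, known as p21, at 143 and 154 TPM against 5.59 and 6.85 TPM. The fibroblast markers differ between the same libraries (1182 and 1402 TPM in the PBs and 10.7 and 12.4 in the PCs, over 8 of 8 markers), and the PCs held more of the neutrophil (8 of 8 markers listed, 448 and 951 TPM against 7.92 and 8.41), T cell (7 of 7, 71.3 and 73.4 against 8.55 and 10.1) and erythroid markers (8 of 10, 26.8 and 26.9 against 1.07 and 1.35, with Hbb-b1 listed at 0 in all libraries), while Cd3e and Cd8a were at 0 in the control PBs. Macrophage markers (5 of 6) summed to 2349 and 2641 against 153 and 154 TPM, led by Ly6c2 at 2148 and 2444 TPM in the PCs. Cd68 went the other way, at 45.8 and 46.5 TPM in the PCs against 128 and 131 TPM in the PBs. Csf1r, Emr1 and Lyz2 were higher in the PCs, where they reached at most 13.6, 5.80 and 137 TPM. The part of other cell types in the differences was not tested.

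**Figure D3:**
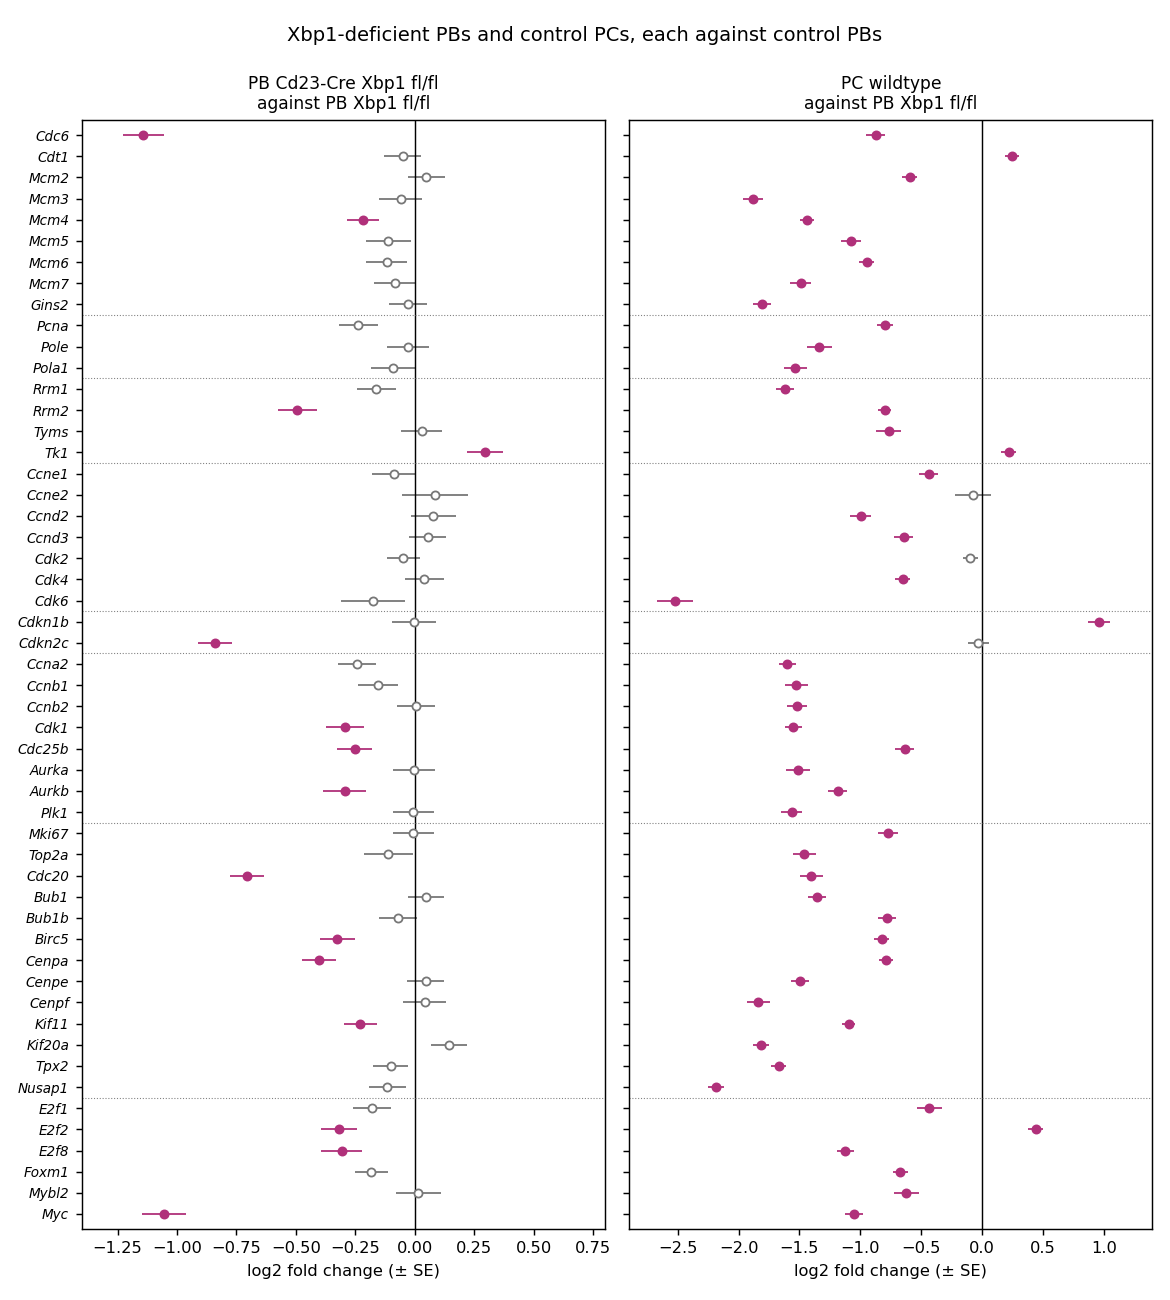
Log2 fold change (± SE) of each cell cycle gene in Xbp1-deficient PBs (left) and in wildtype PCs (right), both against the same control PBs, with filled points for genes past an adjusted p of 0.05 and dotted lines between roles. The axes differ between the panels. On the right 45 of 52 genes are filled and below 0, while on the left 14 are, and with the TPM left unscaled only 5 of those 14 stay past the test.

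Loss of Mist1 in PCs was accompanied by lower levels of cell cycle genes. Of the 52 genes, 25 were lower and 0 higher in Mist1-deficient PCs than in wildtype PCs by limma (at an unadjusted p under 0.05, 31 were lower and 1 higher), where 16.2% of the 12028 genes tested were lower and 13.3% higher. The median log2 difference was -0.27, against 0.01 over all genes. By role, 6 of 8 cyclins and kinases of S, G2 and M, 4 of 6 transcription factors, 7 of 13 genes of the mitotic machinery, 4 of 9 licensing genes and 2 of 4 genes of nucleotide supply were lower, but 1 of 7 cyclins and kinases of G1 was, and of the 3 genes of DNA synthesis none passed (the smallest limma adjusted p was 0.0740, for Pcna).

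Cdc25b differed most. It was at 103 and 123 TPM in wildtype PCs and 52.1 and 52.3 TPM in Mist1-deficient PCs, a difference of -1.09 ± 0.08 (limma adjusted p = 0.00156). E2f2 was at 82.9 and 86.6 TPM against 44.5 and 46.7 TPM (-0.87 ± 0.07), and E2f1 at 30.7 and 36.4 TPM against 19.4 and 21.2 TPM (-0.70 ± 0.12). E2f2 in Mist1-deficient PCs was thus below the 57.3 and 58.0 TPM of control PBs. Cdkn2c was at 74.9 and 87.7 TPM against 45.3 and 46.6 TPM (-0.80 ± 0.10), so that an inhibitor of the cycle was lower together with its activators. Ccna2 was at 72.2 and 75.1 TPM against 41.4 and 43.7 TPM (-0.77 ± 0.07), and Myc at 64.5 and 65.4 TPM against 36.6 and 38.9 TPM (-0.76 ± 0.07). Mcm2 was at 86.0 and 87.7 TPM against 50.4 and 51.5 TPM (-0.75 ± 0.06). None of the ranges of these genes overlapped.

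Rrm2 was at 221 and 222 TPM in wildtype PCs and 129 and 132 TPM in Mist1-deficient PCs (-0.74 ± 0.06), whereas its partner Rrm1 differed by -0.33 ± 0.07. Tpx2, which builds the mitotic spindle and activates Aurka, was at 40.8 and 41.5 TPM against 23.9 and 25.0 TPM (-0.73 ± 0.07). Top2a was at 141 and 153 TPM against 99.8 and 107 TPM (-0.49 ± 0.06). The other 5 helicase subunits differed by -0.04 to -0.30, of which Mcm5 and Mcm6 passed the test, and the gap between them and Mcm2 was not tested. Bub1b was at 59.1 and 64.7 TPM against 68.4 and 73.4 TPM, the largest rise in value among the 52 genes (0.21 ± 0.07, limma adjusted p = 0.0583), and did not pass. Mybl2 was at 11.3 and 12.5 TPM against 7.98 and 9.34 TPM (-0.44 ± 0.12). Cdk4 was at 232 and 240 TPM against 176 and 187 TPM (-0.36 ± 0.07), and was the G1 gene that passed. Cdk6, at 4.14 and 4.18 TPM against 2.76 and 2.81 TPM, did not (-0.55 ± 0.17, limma adjusted p = 0.0581), although its libraries did not overlap. Cdkn1b, at 176 and 200 TPM against 198 and 200 TPM, Ccnd2, at 225 and 251 TPM against 231 and 238 TPM, and Mki67, at 246 and 283 TPM against 219 and 244 TPM, did not pass either, and the same held for Foxm1 at 41.8 and 48.2 TPM against 38.7 and 39.6 TPM and E2f8 at 19.4 and 19.8 TPM against 17.8 and 18.3 TPM.

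Of the 25 genes, 8 were lower in all 12 alternative analyses, namely Ccna2, Cdc25b, Cdkn2c, E2f2, Mcm2, Myc, Rrm2 and Tpx2. Without replicate 1 of the Mist1-deficient PCs 13 genes were lower, and without replicate 2 of them 9 were lower. B cell markers (9 of 9 listed) summed to 1005 and 1364 TPM in wildtype and 795 and 873 TPM in Mist1-deficient PCs, and erythroid markers (8 of 10 listed, Hbb-b1 at 0) to 26.8 and 26.9 against 14.9 and 20.5 TPM, while T cell markers (7 of 7) summed to 71.3 and 73.4 against 80.5 and 103 TPM and the neutrophil sums (8 of 8) overlapped (448 and 951 against 545 and 818 TPM). Macrophage markers (5 of 6) summed to 2349 and 2641 against 2266 and 2288 TPM, led by Ly6c2. Of these markers, Cd68 was higher in Mist1-deficient PCs, at 64.3 and 72.8 against 45.8 and 46.5 TPM, and the others were lower. The part of other cell types in the differences was not tested. Other mitosis genes were lower in 22 of 68 cases and higher in 0 by limma (2 at an unadjusted p under 0.05). Other replication genes were lower and higher in 11 and 1 of 48, and other regulators in 13 and 3 of 44. Over all 12028 genes tested, 16.2% were lower and 13.3% higher. Examples are the repair kinase gene Atm, at 19.3 and 21.4 TPM against 7.19 and 7.25 TPM, Cenpm, of the centromere, at 30.1 and 34.5 TPM against 14.1 and 15.9 TPM, and Fen1, which trims Okazaki fragments, at 126 and 141 TPM against 71.3 and 74.3 TPM.

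In cultured PBs the loss of Mist1 left few called differences among genes of any kind and none among the 52. The count of 0 thus does not set the cell cycle genes apart. Of the 52 genes, 0 were higher and 0 lower in Bhlha15 CreER/CreER PBs than in control PBs by limma (at an unadjusted p under 0.05, 2 were higher and 4 lower), where 0.0495% of the 12125 genes tested were higher and 0.272% lower, and the count was 0 in all 13 alternative analyses. Differences ranged from -0.28 to 0.39 with standard errors of 0.07 to 0.14, and the smallest adjusted p was 0.223, for E2f2. E2f2 was at 57.3 and 58.0 TPM in control PBs and 44.5 and 47.5 TPM in Bhlha15 CreER/CreER PBs (-0.28 ± 0.07), ranges that did not overlap. Cdc25b was at 157 and 166 TPM against 124 and 144 TPM (-0.24 ± 0.07). Myc was at 123 and 126 TPM against 108 and 115 TPM (-0.12 ± 0.09), and Rrm2, at 349 and 364 TPM against 336 and 347 TPM, differed by -0.02 ± 0.08. Ccne2, at 6.93 and 7.03 TPM against 7.66 and 10.3 TPM, had the largest rise in value (0.39 ± 0.14) without passing the test. B cell markers (9 of 9 listed) summed to 959 and 1002 TPM in control PBs and 830 and 847 TPM in Bhlha15 CreER/CreER PBs, and their part was not tested. In the lists of other cell cycle genes, limma called 0 of 48 replication genes, 0 of 68 mitosis genes and 0 of 45 regulators, and at an unadjusted p under 0.05, 5, 1 and 1 were higher and 1, 7 and 1 lower.

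The 2 stages were compared directly by the difference of their Mist1 effects in a model of all 10 libraries. For 15 of the 52 genes the difference between Mist1-deficient and control cells was lower in PCs than in PBs, and for 0 it was higher (at an unadjusted p under 0.05, 30 lower and 2 higher), where 4.17% of the 13230 genes tested were lower and 1.94% higher. Rrm2 differed by -0.74 in PCs and by -0.02 in PBs, and the effects differed by -0.71 ± 0.08 (limma adjusted p = 0.00502). For Ccna2 the effects were -0.77 and -0.01, for Mcm2 -0.75 and -0.07, and for Cdc25b -1.09 and -0.24. Of the 15 genes, 6 (Ccna2, Cdc25b, E2f2, Mcm2, Rrm2 and Tpx2) were called in all 16 alternative analyses. The count was 7 without either control PB library or either Mist1-deficient PC library, and 9 without replicate 1 of the wildtype PCs. Of other cell cycle genes, 6 of 48 replication genes, 11 of 68 mitosis genes and 5 of 45 regulators had a lower effect in PCs by limma and 1 regulator, E2f3, a higher one, while replication and mitosis genes with a higher effect numbered 0 also at an unadjusted p under 0.05. The effects also differ in allele (a CreER insertion in all cells against deletion by Cd23-Cre) and in the genotype of the control, which cannot be told apart from the stage.

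**Figure D4:**
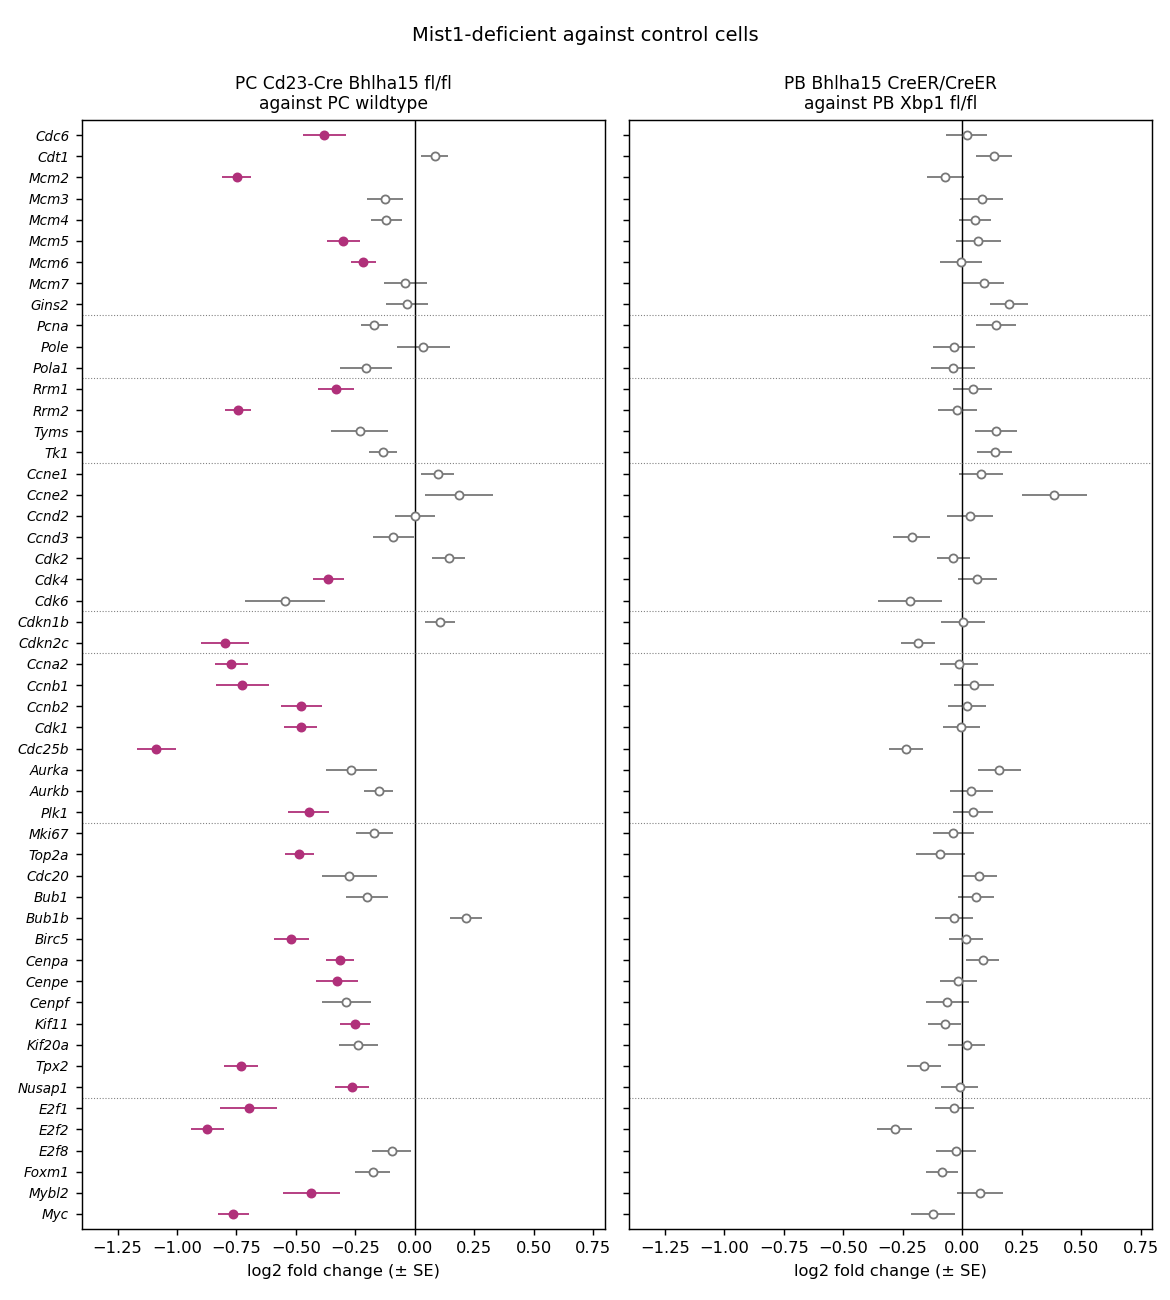
Log2 fold change (± SE) of each cell cycle gene in Mist1-deficient against control PCs (left) and PBs (right) on the same axis, with filled points for genes past an adjusted p of 0.05. On the left 25 genes are filled, all below 0 and led by Cdc25b at -1.09. On the right none is, where 6 of all 12125 genes tested were higher and 33 lower.

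Xbp1-deficient PBs differed from control PBs in a few cell cycle genes. In the libraries scaled to a common median, 14 of the 52 genes were lower and 1, Tk1, higher in Xbp1-deficient PBs, where 18% of the 12125 genes tested were lower and 10.3% higher. The scaling of libraries changed these counts. The scaling factors of the Xbp1-deficient libraries were 1.12, against 0.944 and 0.999 in the control, and in TPM as deposited, where the median of all genes moved to 0.21, 5 genes were lower and 8 higher, where 1357 of the 12125 genes tested were lower and 3423 higher. The median of the cell cycle genes was -0.10 after scaling and 0.11 in TPM as deposited. The 5 genes that were lower in all 13 alternative analyses are Cdc6, Myc, Cdkn2c, Cdc20 and Rrm2.

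Cdc6, which recruits the helicase to origins, was at 32.9 and 34.1 TPM in control PBs and 17.2 and 17.8 TPM in Xbp1-deficient PBs, a difference of -1.14 ± 0.09 (limma adjusted p = 3.32e-05). Its partner Cdt1, at 60.6 and 63.8 TPM against 67.8 and 70.9 TPM, differed by -0.05 ± 0.08 after scaling. Myc was at 123 and 126 TPM against 69.3 and 69.4 TPM (-1.05 ± 0.09), and Cdkn2c at 76.4 and 76.7 TPM against 49.0 and 49.6 TPM (-0.84 ± 0.07). Cdc20 was at 200 and 212 TPM against 141 and 150 TPM (-0.71 ± 0.07), and Rrm2 at 349 and 364 TPM against 292 and 293 TPM (-0.49 ± 0.08). In each of these 5 genes both deficient libraries were below both control libraries in TPM as deposited as well. Cenpa, the histone of centromeres, was at 146 and 161 TPM against 131 and 137 TPM (-0.40 ± 0.07), and E2f2 at 57.3 and 58.0 TPM against 51.7 and 55.1 TPM (-0.32 ± 0.07).

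E2f8, at 38.6 and 40.5 TPM against 35.7 and 38.1 TPM (-0.31 ± 0.09), and Aurkb, at 124 and 133 TPM against 115 and 127 TPM (-0.30 ± 0.09), passed the test at limma adjusted p of 0.0287 and 0.0420, and the Aurkb libraries overlapped in TPM as deposited. The remaining 5 genes that were lower, Birc5, Kif11, Cdk1, Cdc25b and Mcm4, differed by -0.22 to -0.33. Tk1 was at 68.0 and 68.7 TPM against 93.4 and 101 TPM (0.30 ± 0.07), and lost its call when either control library or replicate 1 of the deficient PBs was left out. Mki67, at 415 and 419 TPM against 466 and 493 TPM, Top2a, at 373 and 374 TPM against 392 and 407 TPM, Ccnd2, at 416 and 463 TPM against 529 and 541 TPM, and Ccnd3, at 44.0 and 45.5 TPM against 52.8 and 54.6 TPM, had higher TPM in the deficient libraries but differed by -0.11 to 0.08 after scaling. Foxm1, E2f1 and Mybl2 did not pass the test (-0.18, -0.18 and 0.01), nor did Cdkn1b (limma adjusted p = 0.990).

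Leaving out any library of either group left fewer genes past the test, both among the 52 and over all genes. The median log2 difference of the 52 genes then lay between -0.17 and -0.05, against -0.003 to 0.002 over all genes. Plasmablast and plasma cell markers (9 of 10 listed) summed to 42050 and 42080 TPM in control and 21310 and 21930 TPM in Xbp1-deficient PBs. Igj and Mzb1 made up most of these sums, and Prdm1, Irf4 and Tnfrsf13b went the other way. B cell markers (9 of 9) summed to 959 and 1002 against 1076 and 1145 TPM, with Cd22 and Cr2 going the other way. Neutrophil markers (8 of 8) summed to 7.92 and 8.41 against 123 and 125 TPM, and fibroblast markers (8 of 8) to 1182 and 1402 against 1663 and 1804 TPM. Macrophage markers (5 of 6) summed to 153 and 154 against 50.8 and 55.4 TPM. In that sum Cd68 was at 128 and 131 against 16.9 and 18.7 TPM. Lyz2 was at 5.22 and 5.86 against 15.1 and 15.8 TPM and Ly6c2 at 17.1 and 19.7 against 18.4 and 20.6 TPM. Csf1r and Emr1, also in the sum, reached at most 0.127 and 0.268 TPM in these libraries. The part of other cell types in the differences was not tested. Outside the 52 genes, 15 of 48 replication genes were lower and 4 higher, with Fen1 at 227 and 251 TPM in control and 93.4 and 99.8 TPM in Xbp1-deficient PBs. Mitosis genes were lower in 11 of 68 cases and higher in 1, Pttg1, the securin of sister chromatids, which was at 32.0 and 32.8 TPM against 79.0 and 105 TPM. Cks1b, a subunit of Cdk1 complexes, was at 337 and 351 TPM against 186 and 191 TPM. Of 45 regulators, 11 were lower and 7 higher. Over all 12125 genes tested, 18% were lower and 10.3% higher.

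The mutant PB genotypes were also compared with each other. Bhlha15 was at no more than 3.57 TPM in both. Of the 52 genes, 12 were lower and 1 higher in Xbp1-deficient PBs than in Bhlha15 CreER/CreER PBs, where 17.8% of the genes tested were lower and 9.34% higher, whereas with TPM as deposited 6 were lower and 14 higher, where 1266 of all 12125 genes tested were lower and 3977 higher. Cdc6 (32.1 and 33.8 TPM in Bhlha15 CreER/CreER PBs) differed by -1.16 ± 0.09 and Myc (108 and 115 TPM) by -0.93 ± 0.09. Cdc20 (204 and 217 TPM) differed by -0.78 ± 0.07, Cdkn2c (62.1 and 68.9 TPM) by -0.66 ± 0.07, Cenpa (151 and 165 TPM) by -0.49 ± 0.07 and Rrm2 (336 and 347 TPM) by -0.47 ± 0.08. These 6 genes were lower in all 13 alternative analyses, and without replicate 2 of the Xbp1-deficient PBs they were the 6 that remained. Pcna, the sliding clamp of replication, was at 301 and 309 TPM in Bhlha15 CreER/CreER PBs and 267 and 291 TPM in Xbp1-deficient PBs (-0.38 ± 0.08). The gene that was higher, Ccnd3, was at 34.3 and 41.1 TPM against 52.8 and 54.6 TPM (0.27 ± 0.08), and lost its call without either Xbp1-deficient library, without replicate 2 of the Bhlha15 CreER/CreER PBs, without the trend and with the compared groups alone. Neutrophil markers (8 of 8) summed to 123 and 125 TPM in Xbp1-deficient PBs against 1.07 and 6.40 TPM in Bhlha15 CreER/CreER PBs. In the same order, fibroblast markers (8 of 8) summed to 1663 and 1804 against 931 and 1564 TPM, and B cell markers (9 of 9) to 1076 and 1145 against 830 and 847 TPM. Plasmablast and plasma cell markers (9 of 10) summed to 21310 and 21930 against 38690 and 42140 TPM, with Prdm1, Irf4 and Tnfrsf13b going the other way. The part of these cell types was not tested. Of the other cell cycle genes, 16 of 48 replication genes, 7 of 68 mitosis genes and 9 of 45 regulators were lower, and 2, 3 and 4 higher. These counts stand beside the 17.8% of all genes tested that were lower and the 9.34% that were higher.

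**Figure D5:**
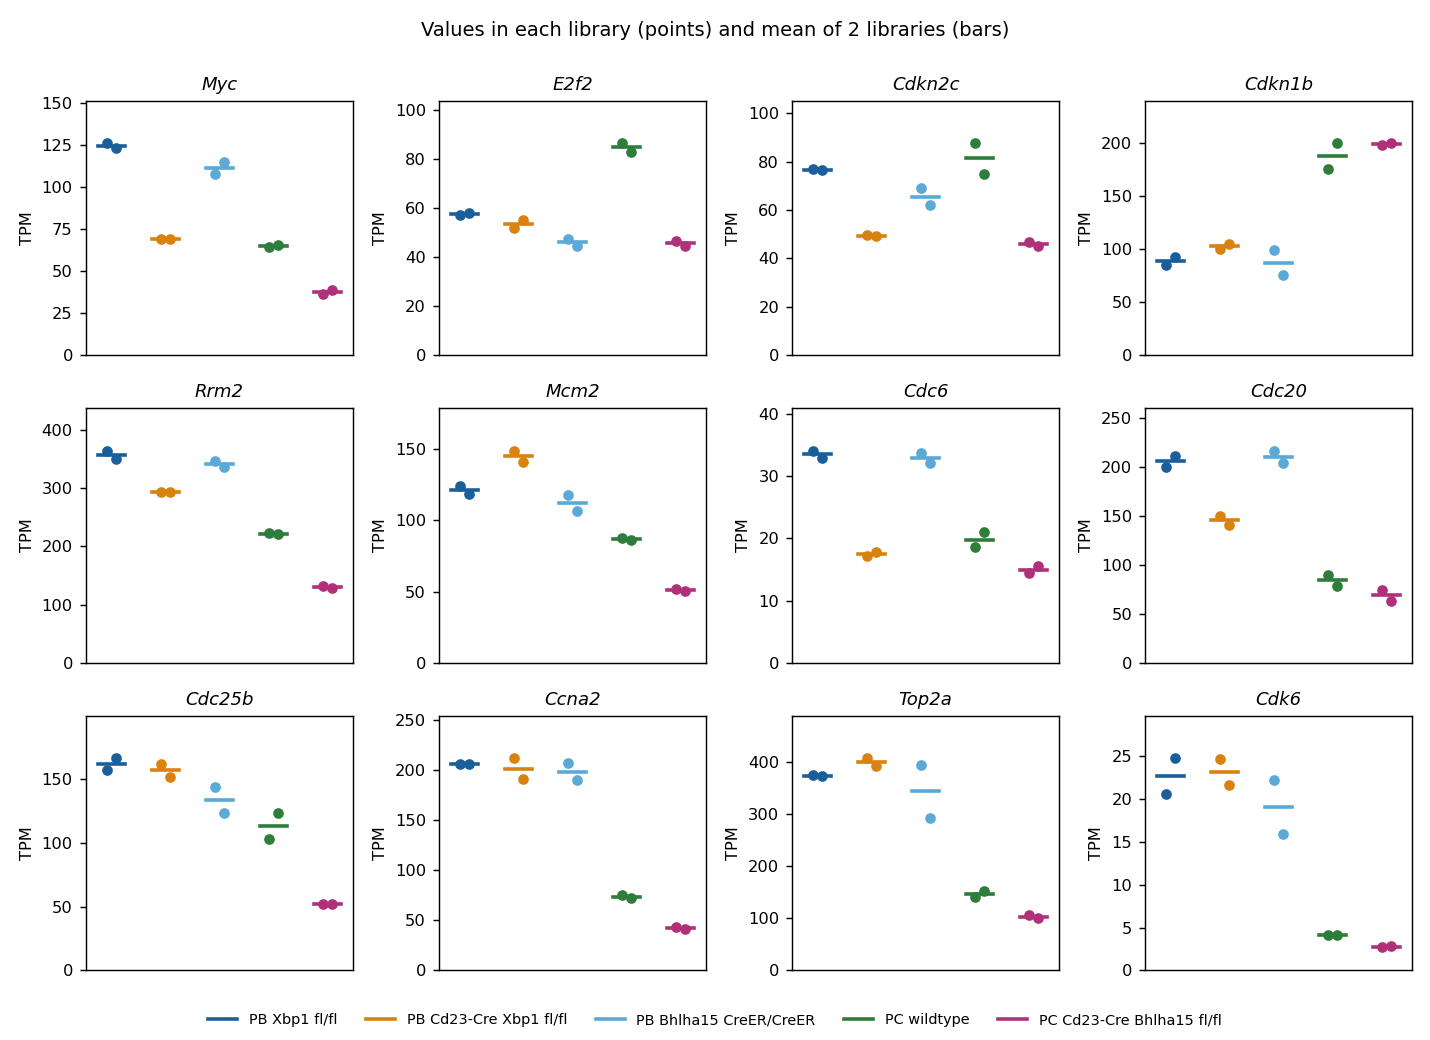
TPM as deposited of 12 cell cycle genes, with a point for each library and a bar for the mean of the 2 libraries of each of the 5 groups (axes start at 0). Myc and Cdkn2c sit lower in Xbp1-deficient PBs and again in Mist1-deficient PCs than in their controls, E2f2 falls from 82.9 and 86.6 to 44.5 and 46.7 TPM between the PC groups, and Cdkn1b rises from PBs to PCs.

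Set side by side, the same gene could differ in several comparisons. Those with PBs share the Xbp1 fl/fl libraries. Both comparisons with wildtype PCs share the wildtype PC libraries, which enter them with opposite sign. Myc differed by -1.05 in Xbp1-deficient PBs, by -0.12 in Bhlha15 CreER/CreER PBs, by -0.76 in Mist1-deficient PCs and by -1.05 in wildtype PCs against control PBs. Cdkn2c differed by -0.84, -0.18, -0.80 and -0.03 in the same order, and Cdc6 by -1.14, 0.02, -0.38 and -0.87. Mcm2, in contrast, differed by 0.05 and -0.07 in the mutant PBs, by -0.75 in Mist1-deficient PCs and by -0.59 in wildtype PCs against control PBs.

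Mist1 occupancy at these genes was read from peak lists of 2 Bio-ChIP-seq experiments on CD138+ PBs of genotype Bhlha15(fl/fl) R26(BirA/BirA) after 4 days with LPS, a culture other than the iGB system and a stage other than splenic PCs. The peak lists used here are shorter than those the study describes, so that a gene without a region here may have a peak that was not analysed. Common regions, 23804 in number, lay within 1 kb of an annotated start site (mm9) of 42 of the 52 genes, or 80.8%, against 61% of all 12145 tested genes with annotation and 75% of the 7863 genes that had at least 5 TPM in every library. At Myc the nearest region was chr15:61815857-61817298, at E2f2 chr4:135727620-135729947, at Cdc25b chr2:131011795-131013681 and at Rrm2 chr12:25390998-25394134, and each covered a start site. With the peaks of experiment 1 alone 43 of the 52 genes had a region, Mcm7 among them, and with those of experiment 2 alone 46, with Ccnb2, Gins2, Plk1 and Cenpf among them. The 10 genes without such a region in these lists were Ccnb2, Mcm3, Mcm7, Gins2, Pola1, Bub1, Aurka, Plk1, Cenpe and Cenpf. Of the 42 genes with a region, 22 were lower in Mist1-deficient PCs, and of the 10 without, 3 were, with medians of -0.27 and -0.24, and this difference was not tested. The files give positions without heights, so that strength of binding could not be compared.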

How the data were processed

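RNA-seq was performed on 10 libraries. Per the paper's methods and the submitters' processing notes, the authors trimmed reads with cutadapt, aligned them to mm9 with STAR 2.4.2, counted them per gene with featureCounts 1.5 and converted the counts to TPM. The deposited TPM files hold no immunoglobulin or T cell receptor genes and no counts, so that depth is unknown and the count test of the study could not be repeated. Whether counting used strand is not given in the sources used here. TPM were scaled by median-of-ratios factors, and log2(TPM + 0.1) of genes that reached 1 TPM in 2 or more libraries was fitted with limma 3.58.1 (R 4.3.3, empirical Bayes with a trend) and Benjamini-Hochberg adjustment. Fits covered the 6 PB libraries, the 4 PC libraries or, for contrasts between stages, all 10. The 3-fold rule also asked for a mean above 5 TPM. The procedure was tested on simulated data. A near copy is a match of at least 200 bases at 95% identity (blastn 2.17.0). The authors aligned the Bio-ChIP-seq reads with Bowtie 1.0.0 and called peaks with MACS, deposited as positions with no signal values. The lists used here hold 29413 and 30247 peaks, fewer than the study describes, and overlapping peaks were joined into common regions. The 52 genes, the other gene lists and the marker lists were chosen with earlier results of these data known. All 52 genes were counted by role. Values per library are given for fixed genes (Mki67, Top2a, the inhibitors, the transcription factors, the D- and E-type cyclins, Cdk4 and Cdk6) and for the called genes with the largest change in each comparison and role.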

Additional observations from a re-analysis of the deposited data

Results flagged for a closer look

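The difference between Mist1-deficient and control cells was not the same in PCs and PBs for 15 of the 52 genes by a test of the difference itself (limma, adjusted p under 0.05), and in all 15 the value was lower in PCs. The 2 effects come from different alleles, controls and stages, which cannot be told apart. Among cyclins, kinases and the phosphatase Cdc25b, the difference of the log2 effects was -0.84 for Cdc25b, -0.76 for Ccnb1, -0.74 for Ccna2, -0.48 for Ccnb2, -0.46 for Cdk1 and -0.41 for Cdk4. Of the replication genes, Rrm2 had a difference of -0.71 and Mcm2 of -0.66. The transcription factors E2f1, Myc and E2f2 had differences of -0.65, -0.63 and -0.58, and the inhibitor Cdkn2c of -0.60. In the mitotic machinery, the difference was -0.55 for Tpx2, -0.52 for Birc5 and -0.39 for Cenpa.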

How the results depend on the processing

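Each group had 2 libraries, and fits without a library assume that the lone library varies like the others. The named genes were all called in the main fit, and most had the largest changes, which favours their holding under alternatives. Of 916 values of named genes under alternatives, 826 kept direction and side of the threshold, 89 fell short of it and 1 reversed. The reversal was Tk1 in PCs against PBs, -0.0062 with the mean of both PC groups against that of the 3 PB groups. In that setting 17 rather than 9 genes were over 3-fold lower, and the share over all genes was not taken for it. Directions moved more over all 52 genes. With TPM as deposited, the genes above 0 went from 13 to 36 in Xbp1-deficient PBs and from 11 to 39 between the mutant PBs. The counts of called genes, given next, are not among the 916 values. In Xbp1-deficient PBs, 5 genes were lower and 8 higher in TPM as deposited, where 1357 and 3423 of all 12125 genes tested were. After quantile normalization the counts were 8 and 5, against 1965 and 2513 of all genes. Without the trend they were 8 and 0, against 1818 and 889. Between the mutant PBs, 6 were lower and 14 higher in TPM as deposited, 7 and 9 after quantile normalization, and 6 to 12 and 0 to 1 without a library, and 0 were higher without the trend or with the compared groups alone. In Mist1-deficient PCs, 15 were lower without the trend and 9 to 24 without a library, and 1 was higher after quantile normalization, 1 with at least 5 TPM and 0 to 2 without a library. The difference of Mist1 effects held for 8 genes without the trend, where 227 of all 13230 genes were lower. Leaving out a library lowered most of these counts as well. Apart from the scaling, whose factors are given above, the cause was not tested. No paired analysis was possible because the replicate numbers were given in the order of the samples and pair nothing.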

Other observations

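Cell cycle genes outside the 52 showed further differences between control PBs and wildtype PCs. The antiproliferative gene Btg2 was at 164 and 174 TPM in the PBs and 730 and 820 TPM in the PCs, a log2 difference of 2.08 ± 0.17 (limma adjusted p = 3.80e-06). Mxd1 and Mxd4, of the MAX dimerization proteins that oppose Myc, were at 8.57 and 8.84 against 33.9 and 37.6 TPM and at 170 and 185 against 321 and 322 TPM. Both genes were higher in the PCs by the test. Cdkn2a, the gene of p16 and p19Arf, was at 71.5 and 75.7 TPM in the PBs and 5.95 and 8.80 TPM in the PCs (-3.44 ± 0.16). In these PBs the 8 fibroblast markers summed to 1182 and 1402 TPM against 10.7 and 12.4 TPM in the PCs, and their part in the levels of Cdkn2a was not tested.

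In Mist1-deficient PCs, Wee1, the kinase that holds back Cdk1, was at 16.9 and 17.0 TPM against 27.6 and 29.2 TPM in wildtype PCs (-0.72 ± 0.08, limma adjusted p = 0.00358). Rb1, the retinoblastoma gene that restrains E2F, was at 90.9 and 92.4 TPM against 69.4 and 79.3 TPM (0.32 ± 0.07), and E2f3 at 28.4 and 28.6 TPM against 20.6 and 23.1 TPM (0.40 ± 0.08). None of these ranges overlapped. In Xbp1-deficient PBs, Cdc25a, the phosphatase that activates Cdk2, was at 39.5 and 40.1 TPM against 58.8 and 61.5 TPM (-0.80 ± 0.09), and Pold2, a subunit of polymerase delta, at 75.6 and 81.2 TPM against 121 and 128 TPM (-0.88 ± 0.09). Here too both deficient libraries were below both control libraries.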
